A study of Mus musculus with 6 samples.

Results

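The fibrillar collagen genes of tendon and scar were followed in single cells of the mouse Achilles tendon, namely Col1a1 and Col1a2, which encode the chains of type I collagen, Col3a1, the chain of type III collagen, and Col5a1, Col5a2 and Col5a3, the chains of type V collagen. They are given by their symbols. Each matched 1 row of the count tables, so that 6 of 33696 genes are described here. Cells came from Gli1-CreERT2; Ai9 mice given tamoxifen, in which a Cre under control of the Gli1 gene switches on a red reporter, and the uninjured controls carried the same alleles and received the same tamoxifen. In the injured groups the Achilles tendon was clamped repeatedly and then cut (tenotomy). Each time point had 8 mice, 24 in all, whose ages are not given in the sources used here, and tendons were taken uninjured, at 7 days post injury (dpi) or at 21 dpi. Reporter-positive (Gli1+) and reporter-negative (Gli1-) cells were sorted and measured by droplet scRNA-seq in 1 library per sort and time point, 6 libraries in all. The reporter marks cells that used the Gli1 gene when tamoxifen was given, and the progeny of those cells, and does not show whether a cell held Gli1 transcript at the time of the sort. The mice of a library were pooled and cells were not assigned to single mice, so no spread between mice and no test between conditions could be had.

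Fibrillar collagens are secreted as procollagens of 3 chains wound into a helix, trimmed at their ends outside the cell and packed side by side into fibrils. Type I collagen, made of Col1a1 and Col1a2 chains, carries the tensile load of a mature tendon, whereas type III collagen, made of Col3a1 chains alone, is abundant in young repair tissue and scar and gives thinner fibrils. Type V collagen is a minor component that lies inside type I fibrils, starts their assembly and limits their width. Its usual form joins Col5a1 and Col5a2 chains, and Col5a3 chains enter a form found in fewer tissues.

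In the GENCODE M21 annotation of the GRCm38 mouse genome, Col3a1 (ENSMUSG00000026043) lies on the plus strand at chr1:45311538-45349706 and Col5a2 (ENSMUSG00000026042) on the minus strand at chr1:45374321-45503282, so that their 3 prime ends face each other across 24614 bases. The other 4 genes lie on separate chromosomes, with Col5a1 (ENSMUSG00000026837) at chr2:27886425-28039514, Col1a2 (ENSMUSG00000029661) at chr6:4504814-4541544, Col5a3 (ENSMUSG00000004098) at chr9:20770050-20815067 and Col1a1 (ENSMUSG00000001506) at chr11:94936224-94953042. Because the levels of all 6 genes were higher together after injury, the 250 bases before the RefSeq start are shown for the 4 members with an entry in the RefSeq promoter table of build GRCm38.p6. For Col1a2 the RefSeq start lies downstream of the GENCODE gene start, so that its stretch lies inside the GENCODE gene and not before it. Col1a1 and Col5a2 have no entry there. Capitals mark exact matches to 3 short promoter motifs on either strand, the CCAAT box (CCAAT or ATTGG), the TATA box (TATAAA or TTTATA) and the GC box (GGGCGG or CCGCCC), and no marked match overlaps another. The sequences run 5′ to 3′ on the strand of the gene.
Col1a2, chr6:4505368-4505617, plus strand: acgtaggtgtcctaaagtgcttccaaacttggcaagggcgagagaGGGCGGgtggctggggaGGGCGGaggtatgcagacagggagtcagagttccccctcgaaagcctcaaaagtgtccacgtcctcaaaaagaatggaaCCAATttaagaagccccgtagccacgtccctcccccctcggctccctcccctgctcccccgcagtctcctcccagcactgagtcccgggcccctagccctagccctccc
Col3a1, chr1:45311288-45311537, plus strand: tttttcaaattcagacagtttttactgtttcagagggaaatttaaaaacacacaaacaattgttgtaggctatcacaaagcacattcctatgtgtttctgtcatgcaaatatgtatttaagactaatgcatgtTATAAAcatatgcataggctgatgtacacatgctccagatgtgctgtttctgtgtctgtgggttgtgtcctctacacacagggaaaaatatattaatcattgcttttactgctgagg
Col5a1, chr2:27886175-27886424, plus strand: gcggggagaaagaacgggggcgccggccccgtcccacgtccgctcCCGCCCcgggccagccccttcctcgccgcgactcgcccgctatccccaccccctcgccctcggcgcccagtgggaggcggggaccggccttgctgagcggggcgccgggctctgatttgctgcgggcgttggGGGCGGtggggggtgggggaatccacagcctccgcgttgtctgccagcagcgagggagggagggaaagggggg
Col5a3, chr9:20815068-20815317, minus strand: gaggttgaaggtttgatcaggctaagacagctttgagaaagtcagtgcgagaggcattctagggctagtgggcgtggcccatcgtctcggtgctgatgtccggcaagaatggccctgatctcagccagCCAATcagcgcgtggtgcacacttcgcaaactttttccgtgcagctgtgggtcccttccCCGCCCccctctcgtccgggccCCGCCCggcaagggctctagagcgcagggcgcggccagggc
The GC content of these stretches was 62.0% for Col1a2, 35.2% for Col3a1, 76.4% for Col5a1 and 62.8% for Col5a3, against a median of 52.4% over the 32851 promoters of the table. Col1a2 held a CCAAT box that begins 109 bases before the start and GC boxes at 205 and 188 bases. Col5a3 held a CCAAT box at 122 bases and GC boxes on the other strand at 63 and 41 bases, and Col5a1 held GC boxes at 205 bases on the other strand and at 73 bases. Col3a1 held neither a GC box nor a CCAAT box, and a TATAAA at 117 bases. Of all 32851 stretches of this length, 33.9% held a CCAAT box, 12.4% a TATA box and 32.7% a GC box, so such matches are common and only describe the letters. None of the 3 motifs was found in all 4 stretches.

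Transcripts were counted as UMIs (unique molecular identifiers), and a level is the sum over the cells of a group per 1000000 UMIs of that group, written as CPM. The assay reads transcripts at their 3 prime end, so levels of different genes are set side by side without division by length. Unless stated otherwise, 3 values in a row stand for uninjured tendon, 7 dpi and 21 dpi, and 95% intervals cover counting error only. After filters and the removal of likely doublets 7057 to 10882 cells per library were kept, at medians of 4297 to 9770 UMIs per cell, and any pair of libraries had 15 to 33 kept cell barcodes in common. By the labels each group held as many females as males, but 5 of the 6 libraries went against this. Of the cells with a Pdgfra UMI, 77.2% of Gli1+ cells at 7 dpi, 3683 of the 5115 uninjured Gli1- cells and 77.4% of the Gli1- cells at 7 dpi held Y-linked and no Xist UMIs, and by 21 dpi 94.4% (Gli1+) and 94.9% (Gli1-) held Xist and no Y-linked UMIs, whereas uninjured Gli1+ cells were 63.6% Xist and 23.1% Y. Time and sex can therefore not be told apart in the main values of most comparisons. Values within cells of 1 sex are given beside the main comparisons where both libraries hold such cells. Too few cells of a shared sex were held for 21 over 7 dpi in either sort and for 21 dpi over uninjured tendon in Gli1- cells. Log2 ratios over uninjured tendon were larger with TMM scaling (trimmed mean of M values) than with CPM, by the same amount for every gene, and that of Col1a1 in Pdgfra cells was 2.07 and 2.24 at 7 and 21 dpi in Gli1+ and 2.83 and 2.49 in Gli1- libraries, where CPM gave 1.78, 1.81, 2.71 and 2.31. In sums over cells, more cells that make a transcript and more transcript per cell cannot be told apart, so values per cell are given beside some of them.

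Cell types were set by marker genes that include none of the 6 collagens. Pdgfra, the PDGF receptor of connective tissue cells, marked the mesenchymal cells, and at least 1 UMI of it was held by 1778, 4793 and 5256 Gli1+ cells and 5115, 6573 and 5528 Gli1- cells. Among cells without a vascular, immune, epidermal, nerve or muscle signature, stem-like cells held Tppp3 and Ly6a and no Scx, progenitor-like cells held Scx and Ly6a, and tenocyte-like cells held Scx, abundant Fmod and no Ly6a. Bone-like cells held at least 3 of Bglap, Ibsp, Sp7, Dmp1, Phex and Ifitm5, and chondrocyte-like cells at least 3 of a cartilage list led by Col2a1 and Acan. Of the genes that mark the sample, Scx and Tnmd, which define tendon cells, were found in every library, at 10.8 to 70.0 and 21.3 to 253 CPM. Gli1 itself was low in both sorts, at 6.62, 2.15 and 4.12 CPM (Gli1+) and 7.52, 2.55 and 3.93 CPM (Gli1-) over all kept cells. In cells with a Pdgfra UMI it was at 15.0 (13.2 to 16.8), 1.91 and 3.74 CPM in the Gli1+ and 8.78 (7.80 to 9.84), 2.48 and 4.03 CPM in the Gli1- libraries, higher in the Gli1+ sort before injury and not after it.

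Over all kept cells of a library, the 6 collagens together were at 4841, 35123 and 36227 CPM in the Gli1+ sort, against 6565, 45812 and 31586 CPM in the Gli1- sort. Both uninjured libraries were far below the other 4. Col1a1 was at 1877, 13269 and 14253 CPM for Gli1+, and 1978, 16913 and 11853 CPM for Gli1-, and Col3a1 at 515, 10959 and 10639 CPM and 1984, 15884 and 10091 CPM. The make-up of the libraries differed too. In uninjured Gli1+ tendon 3651 of the 7057 kept cells were immune. The injured Gli1+ libraries held none, and the Gli1- libraries held 13, 5 and 18. The library that serves as baseline for all Gli1+ changes was thus unlike all others in its immune cells. Values from here on are therefore for the Pdgfra cells unless a type is named. Tenocyte-like cells are thinly covered by the Pdgfra gate, with 27 of 308 such cells of uninjured Gli1+ tendon holding a Pdgfra UMI, and they are given apart.

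The 6 collagens together took up far more of the transcriptome of mesenchymal cells after injury than before. Their share of all UMIs in Pdgfra cells was 1.23%, 4.26% and 4.24% for Gli1+, against 0.925%, 4.96% and 3.74% for Gli1-. The share in the median cell was lower before injury, at 0.437%, 4.03% and 3.50% for Gli1+, against 0.217%, 4.45% and 3.02% for Gli1-. As a fraction of the share over all Pdgfra cells, the median was thus smaller before injury than after it. In uninjured Gli1+ tendon the lowest 10% of cells lay below 0.140% and the highest 10% above 1.49%, and at 7 dpi these limits were 1.55% and 7.02%. In Gli1- cells they were 0.0648% and 1.36% uninjured and 1.94% and 8.03% at 7 dpi, so that in both sorts the lower limit at 7 dpi was above the upper limit of uninjured tendon. At 21 dpi the spread was wider at its lower end, with lower limits of 0.805% in Gli1+ and 0.646% in Gli1- cells. Endothelial cells held Col1a1 at 65.8 CPM uninjured and 4141 CPM at 7 dpi in the Gli1+ libraries. In the Gli1- libraries they held it at 157 and 3654 CPM. The part of free RNA from the droplets in the shares after injury was not tested.

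Col1a1, the more numerous chain of type I collagen, was at 4595, 15767 and 16088 CPM (Gli1+) and 2773, 18139 and 13732 CPM (Gli1-). Both uninjured libraries were low. Summed over types, Gli1+ cells were level from 7 to 21 dpi at 1.02-fold, while Gli1- cells were lower at 21 than at 7 dpi. Single types went in different directions in both sorts. Relative to uninjured tendon the log2 ratio was 1.78 (95% interval 1.77 to 1.79) after 7 and 1.81 (1.80 to 1.82) after 21 days in Gli1+ cells, against 2.71 (2.70 to 2.72) and 2.31 (2.299 to 2.32) in Gli1- cells. The Gli1+ values depended on few uninjured cells. Without bone-like and chondrocyte-like cells, an alternative chosen after seeing the data, the log2 ratio of Col1a1 was 2.69 and 2.65 for Gli1+, against 2.80 and 2.33 for Gli1-. The median cell held 7, 157 and 119 Col1a1 UMIs in Gli1+ and 2, 203 and 94 in Gli1- libraries. Col1a2, the partner chain, was at 5046, 9963 and 10246 CPM in the Gli1+ sort, against 2832, 10655 and 8410 CPM in the Gli1- sort. Its change over uninjured tendon was smaller than that of Col1a1 in all 4 comparisons, with log2 ratios of 0.98 (0.97 to 0.99) and 1.02 (1.01 to 1.03) for Gli1+, and 1.91 (1.90 to 1.92) with 1.57 (1.56 to 1.58) for Gli1-. Without the same cells they were 1.66 and 1.64 for Gli1+, and 1.99 and 1.58 for Gli1-. Col1a2 was the more abundant of the type I chains in both uninjured libraries, and Col1a1 in all 4 injured libraries.

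Col3a1 had the largest increase of the 6 in Gli1+ cells. It was at 1593, 13720 and 13339 CPM for Gli1+, and 2840, 17445 and 12504 CPM for Gli1-. The uninjured Gli1+ library was the lowest of the 6 and the Gli1- library of 7 dpi the highest. The log2 ratio over uninjured tendon was 3.11 (3.09 to 3.12) after 7 and 3.07 (3.05 to 3.08) after 21 days in Gli1+ cells, or 8.61-fold and 8.37-fold, against 2.62 (2.61 to 2.63) and 2.14 (2.13 to 2.15) in Gli1- cells. In Gli1- cells Col1a1 had the larger log2 ratio at 7 dpi, at 2.71, and the order of the members there was Col1a1, Col3a1, Col5a1, Col5a2, Col1a2 and Col5a3. With 21 over 7 dpi, Col3a1 was level in Gli1+ cells at a log2 ratio of -0.04, which became 0.10 with TMM scaling, and lower in Gli1- cells at -0.48.

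The type V genes were less abundant than type I in every library and differed among themselves. Col5a2 was the most abundant of them in every library, at 610, 1765 and 1736 CPM (Gli1+) and 388, 1818 and 1730 CPM (Gli1-). Col5a1, the chain present in nearly all type V collagen, was at 302, 1087 and 735 CPM and at 254, 1205 and 718 CPM. Both were lowest in uninjured tendon. Summed over Pdgfra cells they parted after 7 dpi, when Col5a2 stayed level and Col5a1 was lower again at 21 dpi. For Col5a2 and Col5a1 the log2 ratios of 21 over 7 dpi were -0.02 (0.12 with TMM scaling) and -0.56 for Gli1+, against -0.07 and -0.75 for Gli1-. By type Col5a2 was not level, being higher at 21 dpi in 2 and lower in 5 of 8 Gli1+ types. In Gli1- libraries it was higher in 1 and lower in 7 of 8. Col5a1 was higher in 1 and lower in 7 of 8 types in each sort. Col5a2 UMIs per 100 Col5a1 UMIs were 202, 162 and 236 for Gli1+, against 153, 151 and 241 for Gli1-, so the mix of these chains at 21 dpi was unlike that at 7 dpi in both sorts. Col5a3 changed least of the 6, at 201, 321 and 270 CPM and at 162, 331 and 282 CPM, or log2 ratios over uninjured tendon of 0.67 and 0.42 for Gli1+, against 1.03 and 0.80 for Gli1-. In Gli1+ cells at 21 dpi the direction for Col5a3 depended on the weight given to cells, with a log2 ratio of -0.02 when each cell counted equally and -0.04 with the same cells thinned to 2000 UMIs. It was -0.28 with thinning before the Pdgfra gate, which also changes the set of cells.

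**Figure D1:**
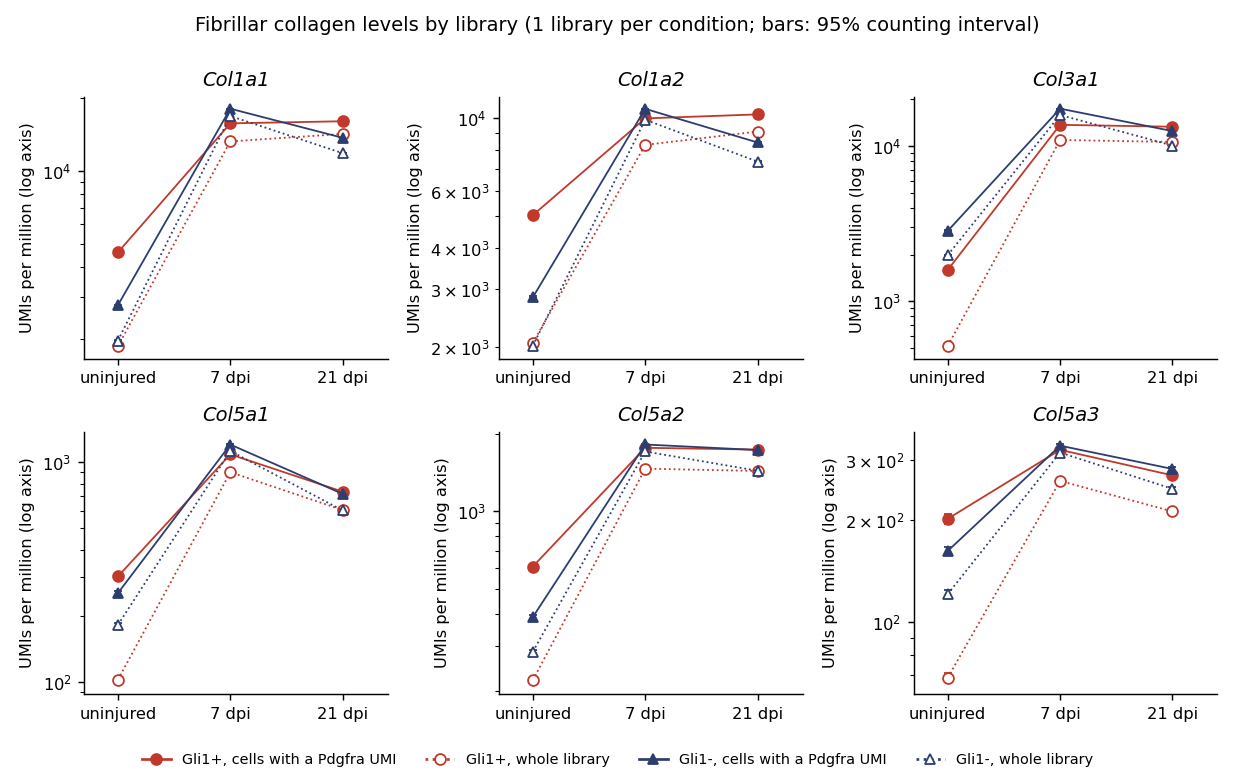
Level of each collagen gene (CPM, log axis) against time in 1 library per point, with 95% counting intervals, for Gli1+ (circles) and Gli1- (triangles) libraries, in cells with a Pdgfra UMI (filled) and in all kept cells (open). Every gene was lowest in uninjured tendon, the span being widest for Col3a1 in all kept Gli1+ cells (515 to 10959) and narrowest for Col5a3 in Gli1+ Pdgfra cells (201 to 321).

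Set against the change of all genes, the collagens stood high, though they were chosen with earlier results of these data known. Of the genes with at least 50 UMIs in the pair of libraries, 13.2% were at least 2-fold higher at 7 dpi than in uninjured tendon in Gli1+ Pdgfra cells and 7.86% at 21 dpi, against 4 and 5 of the 6 members. In Gli1- cells 13.8% and 12.2% of all genes passed the same fold, against 6 and 5 members. Members short of 2-fold were Col1a2 (1.97-fold) and Col5a3 (1.60-fold) in Gli1+ cells at 7 dpi, and Col5a3 at 21 dpi in both sorts. Without bone-like and chondrocyte-like cells 5 members passed in Gli1+ cells at 7 dpi, Col1a2 among them. The median log2 ratio of the members was 1.66 and 1.40 for Gli1+, against 2.24 and 1.85 for Gli1-, while the medians of all genes were -0.16, -0.29, -0.08 and -0.11. Ranked among all genes by log2 ratio in Gli1+ cells at 7 dpi, Col3a1 lay at percentile 97.6 and Col5a3 at percentile 80.4. No member was 2-fold higher or lower at 21 than at 7 dpi in either sort, where 4.51% of all genes were higher and 10.2% lower in Gli1+ and 5.29% higher and 6.26% lower in Gli1- cells. Within cells of 1 sex the direction was the same for every member compared. Among Y cells Col3a1 differed between 7 dpi and uninjured tendon by a log2 ratio of 2.75 in Gli1+ and 2.51 in Gli1- libraries and Col1a1 by 1.74 and 2.69, and among Xist cells of the Gli1+ libraries Col3a1 was higher at 21 dpi by 3.22 and Col1a1 by 1.86.

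The ratio of type III to type I collagen transcripts was then read as Col3a1 UMIs per 100 Col1a1 UMIs, which leaves out Col1a2. In Gli1+ Pdgfra cells it was 34.7 (34.2 to 35.1), 87.0 (86.7 to 87.3) and 82.9 (82.7 to 83.2), and in Gli1- cells 102 (102 to 103), 96.2 (96.0 to 96.4) and 91.1 (90.8 to 91.3). The uninjured Gli1+ library stood apart from the other 5, which lay between 82.9 and 102. Over uninjured tendon, the log2 change of the ratio was 1.33 (1.31 to 1.35) after 7 and 1.26 (1.24 to 1.28) after 21 days in Gli1+ cells, against -0.09 (-0.10 to -0.08) and -0.17 (-0.18 to -0.16) in Gli1- cells. Within 1 sex the ratio at 7 dpi was 86.2 against 42.6 uninjured in Y cells of the Gli1+ libraries and 94.1 against 107 in Y cells of the Gli1- libraries, and at 21 dpi 82.8 against 32.2 in Xist cells of the Gli1+ libraries.

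The low ratio of uninjured Gli1+ tendon rested in large part on few cells. In this library 22 bone-like cells, 1.24% of the 1778 Pdgfra cells, held 46.4% of the Col1a1 UMIs and 38.1% of the Col1a2 UMIs but 0.487% of the Col3a1 UMIs. The 24 bone-like cells of the library had a median of 19998 UMIs, against 9077 in its Pdgfra cells. With all its Pdgfra cells weighted equally Col1a1 was at 2548 CPM and the Col3a1 ratio at 56.3, in place of 4595 CPM and 34.7. Thinning the same cells to 2000 UMIs gave 2585 CPM and 55.8. The share of bone-like cells at equal depth was not tested. Ranking cells by Col1a1 instead of by type, the top 18 cells held 53.6% of Col1a1 UMIs, and the top 18 by Col3a1 held 15.5% of Col3a1 UMIs. The highest cell had 5725 Col1a1 UMIs, against 7 in the median cell. Uninjured Gli1- tendon had the same feature to a lesser degree, with 31.6% of Col1a1 UMIs in its top 52 cells, and after injury the top 1% of cells held 3.97% to 7.63% of Col1a1 UMIs in the 4 libraries. Without bone-like and chondrocyte-like cells the level of Col1a1 in uninjured Gli1+ Pdgfra cells was 2440 CPM in place of 4595, close to the 2605 CPM of Gli1- cells. The Col3a1 ratio was then 67.0, 87.8 and 89.1 for Gli1+, against 109, 97.5 and 98.6 for Gli1-, and its log2 change over uninjured tendon in Gli1+ cells was 0.39 at 7 dpi and 0.41 at 21 dpi. Weighting cells equally gave 0.68 and 0.61, and thinning the same Pdgfra cells to 2000 UMIs, also chosen after seeing the data, gave 0.70 and 0.62. Thinning before the Pdgfra gate, which left 1010, 1976 and 2335 Gli1+ cells, gave 0.28 and 0.21.

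**Figure D2:**
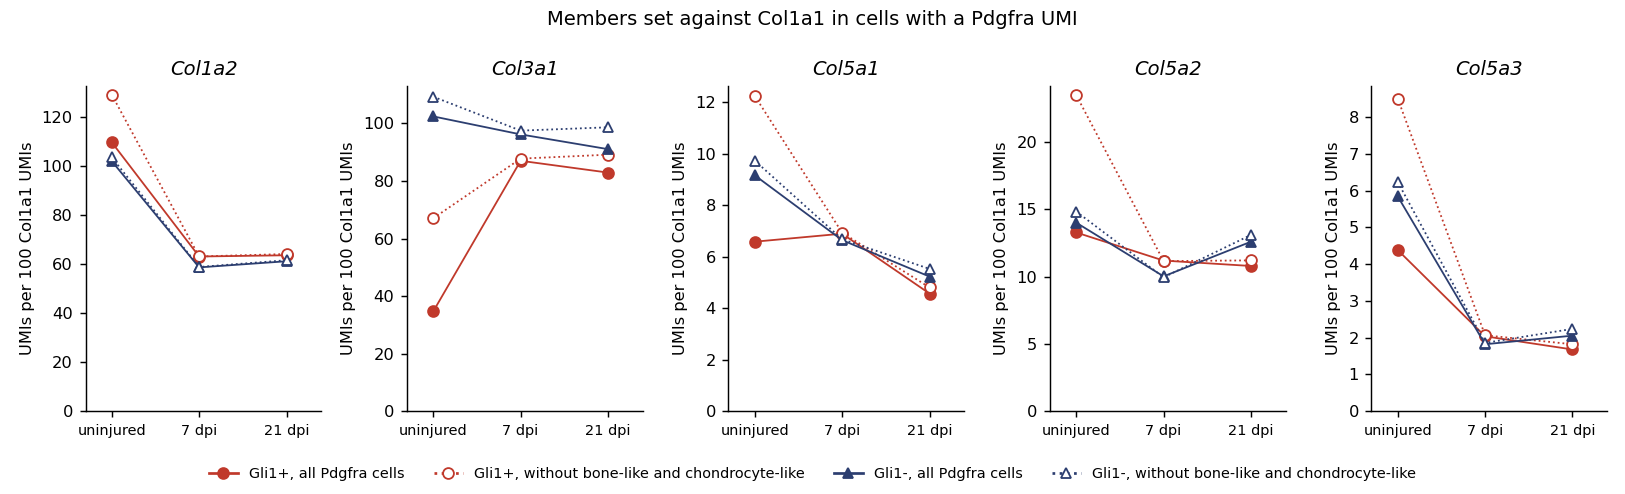
UMIs of each other member per 100 Col1a1 UMIs against time in the Pdgfra cells of 1 library per point (Gli1+ circles, Gli1- triangles), for all such cells (filled) and without bone-like and chondrocyte-like cells (open). For Col3a1 the uninjured Gli1+ library lies at 34.7 with all cells and at 67.0 without these types, and Col1a2 lies above 100 in uninjured tendon and between 58.7 and 64.2 after injury in either reading.

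**Figure D3:**
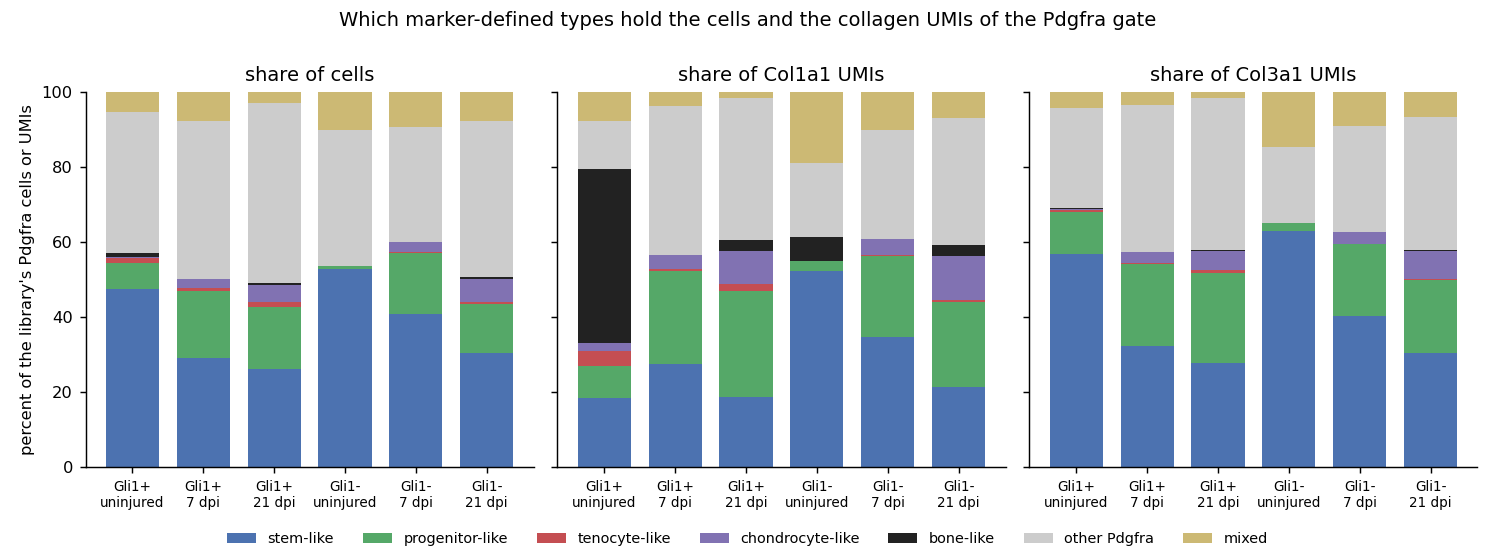
Share of the Pdgfra cells (left), of their Col1a1 UMIs (middle) and of their Col3a1 UMIs (right) that lies in each marker-defined type, in percent, for the 6 libraries. Bone-like cells (black) are 1.24% of uninjured Gli1+ Pdgfra cells and hold 46.4% of their Col1a1 UMIs, a block that is near absent among Col3a1 UMIs (0.487%).

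In single cells the median balance of the pair was closer between libraries. Among Pdgfra cells with at least 20 UMIs of Col1a1 and Col3a1 together, the median share of Col3a1 in the pair was 48.1%, 46.8% and 48.7% in Gli1+ and 56.7%, 50% and 51.0% in Gli1- libraries. In Gli1+ cells its spread was narrower after injury, the lowest 10% of cells lying below 15.5% and the highest 10% above 73.4% in uninjured Gli1+ tendon, and below 33.3% and above 60.8% at 7 dpi. In Gli1- cells the same limits were 37.1% and 74.4% uninjured and 36.9% and 66.9% at 7 dpi. Only 774 of 1778 uninjured Gli1+ cells and 1078 of 5115 uninjured Gli1- cells reached 20 such UMIs, against 4671 of 4793 and 6433 of 6573 at 7 dpi. The median Gli1+ Pdgfra cell held 7 Col1a1 and 7 Col3a1 UMIs uninjured, against 157 and 136 at 7 dpi. Shares from low counts carry more counting error, and its part in the spread was not tested.

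Among the 3 tendon types the ratio was highest in stem-like and lowest in tenocyte-like cells in every library. Stem-like cells held 107, 101 and 120 Col3a1 UMIs per 100 Col1a1 UMIs when Gli1+ and 122, 111 and 127 when Gli1-. Col3a1 UMIs thus outnumbered those of Col1a1 there at all times, with Col1a2 left out. Tenocyte-like cells, set by Scx, abundant Fmod and no Ly6a, had 3.20, 35.6 and 34.0 in Gli1+ and 23.9, 36.4 and 45.6 in Gli1- libraries. Progenitor-like cells lay between, at 26.2, 73.8 and 63.3 and at 68.6, 81.4 and 70.9. Chondrocyte-like cells, numerous enough only after injury, had 66.0 and 41.1 at 7 and 21 dpi in Gli1+ and 68.6 and 51.1 in Gli1- libraries, and bone-like cells at 21 dpi had 9.61 and 10.5. Mural cells, the pericytes and smooth muscle cells of vessels, held 148, 87.1 and 137 and 119, 94.9 and 134, above stem-like cells in 3 libraries and below them in the other 3. The largest change within a type was in tenocyte-like cells of the Gli1+ libraries, in which Col3a1 was at 244, 5257 and 7529 CPM while Col1a1 was at 7617, 14755 and 22155 CPM, a log2 change of the ratio of 3.48 at 7 dpi and 3.41 at 21 dpi. The Gli1- tenocyte-like cells, only 62, 55 and 99 in number, had changes of 0.61 and 0.94. Since this type must hold no Ly6a UMI, the cells that enter it depend on depth. In the Gli1+ libraries its medians were 8050, 5137 and 6716 UMIs, against 11266, 12303 and 12702 in progenitor-like cells. The part of depth and of a different set of cells in the change was not tested. Endothelial cells of the Gli1+ libraries held Col3a1 at 16.0, 3045 and 417 CPM, and at 73.5 per 100 Col1a1 UMIs at 7 dpi. The part of free RNA in the tenocyte-like values was not tested.

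**Figure D4:**
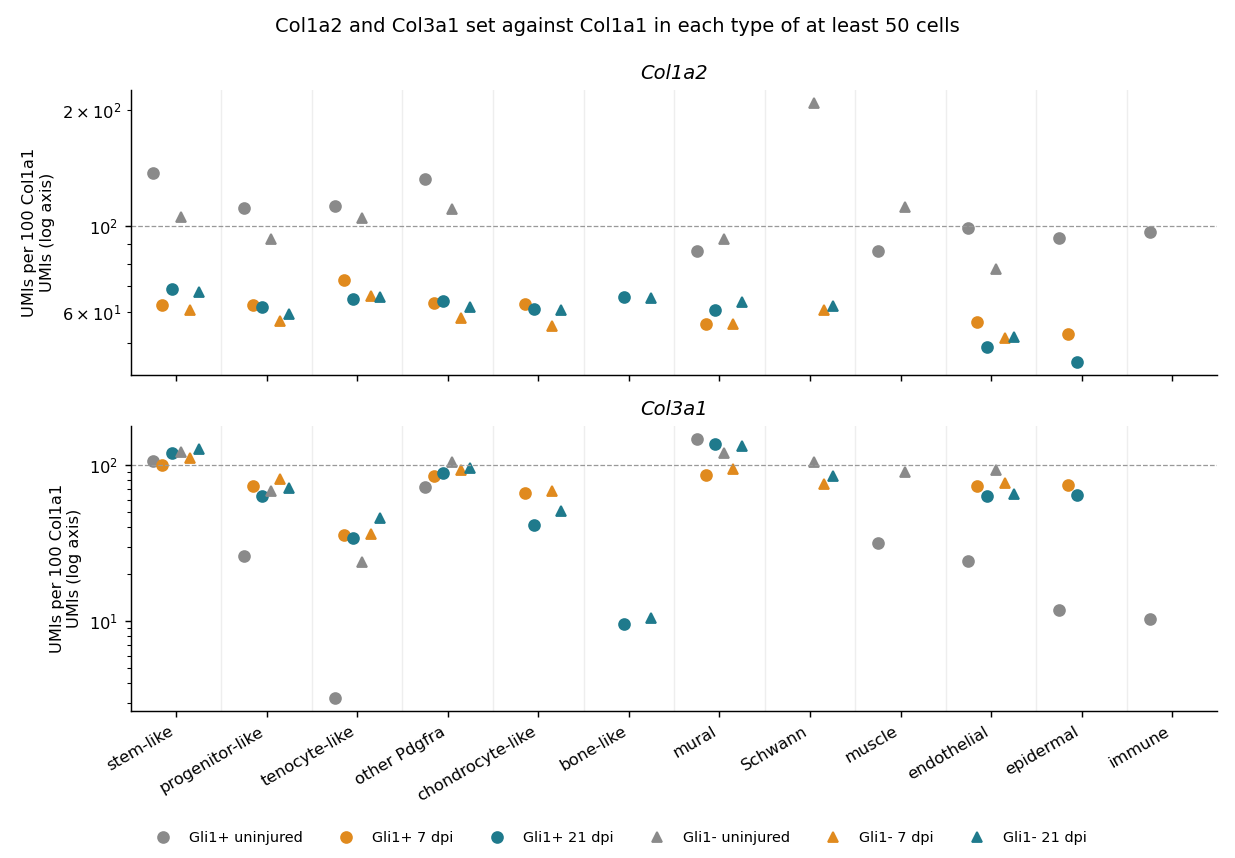
Col1a2 (top) and Col3a1 (bottom) UMIs per 100 Col1a1 UMIs, on a log axis, in each marker-defined type with at least 50 cells, colored by time and shaped by sort (Gli1+ circles, Gli1- triangles). Col3a1 ranges from 3.20 in uninjured Gli1+ tenocyte-like cells to 148 in uninjured Gli1+ mural cells, and in each type with an uninjured value the Col1a2 values after injury are below it.

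The balance of the 2 type I chains differed from uninjured tendon in every type compared. Col1a2 UMIs per 100 Col1a1 UMIs were 110, 63.2 and 63.7 (Gli1+) and 102, 58.7 and 61.2 (Gli1-) in Pdgfra cells, a log2 change over uninjured tendon of -0.80 (-0.81 to -0.78) and -0.79 (-0.80 to -0.77) in Gli1+ and -0.80 (-0.81 to -0.78) and -0.74 (-0.75 to -0.72) in Gli1- cells. The 4 values after injury lay between 58.7 and 63.7. In all 7 types with at least 50 cells in both libraries the ratio was lower after injury, in each of the 4 comparisons. Log2 changes lay between -1.14 and -0.51 in Gli1+ and between -1.78 and -0.54 in Gli1- libraries. The 7 include endothelial cells and epidermal (Gli1+) or Schwann (Gli1-) cells. The change of -1.78 was that of Schwann cells at 7 dpi. The part of free RNA in the ratios of these types was not tested. Stem-like cells of the Gli1+ libraries went from 138 to 62.6 and 68.7, and tenocyte-like cells from 113 to 72.7 and 64.8. Bone-like cells at 21 dpi, with 65.8 and 65.3, were close to the other types. The change was -1.03 at 7 dpi in Gli1+ Pdgfra cells without bone-like and chondrocyte-like cells and -0.92 among Y cells, and none of the alternatives turned its direction over uninjured tendon.

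Relative to Col1a1, Col5a2 and Col5a3 were lower after injury in the Pdgfra cells of both sorts, and Col5a1 was lower except in Gli1+ cells at 7 dpi. The 3 genes together held 24.2, 20.1 and 17.0 UMIs per 100 Col1a1 UMIs in Gli1+ and 29.0, 18.5 and 19.9 in Gli1- Pdgfra cells. Col5a3 had the largest change, from 4.38 to 2.04 and 1.68 in Gli1+ and from 5.84 to 1.82 and 2.06 in Gli1- cells, or log2 changes of -1.10, -1.38, -1.68 and -1.51. Without bone-like and chondrocyte-like cells the Gli1+ ratio of Col5a3 went from 8.50 to 2.07 and 1.82, or changes of -2.04 and -2.22. By type it was lower at 7 dpi in Gli1+ stem-like cells (16.3 to 2.65) but higher in progenitor-like (0.876 to 1.61) and tenocyte-like cells (0.330 to 0.632). Col5a2 was at 13.3, 11.2 and 10.8 and at 14.0, 10.02 and 12.6, and its Gli1+ change at 7 dpi was -0.25 with all Pdgfra cells and -1.07 without these types (23.5 to 11.2). For Col5a1 the values were 6.58, 6.89 and 4.57 for Gli1+, against 9.16, 6.64 and 5.23 for Gli1-, and the direction over uninjured tendon depended on the choice of cells. The log2 change at 7 dpi in Gli1+ cells was 0.07 (0.03 to 0.11) with all Pdgfra cells and -0.82 without bone-like and chondrocyte-like cells, in which the ratio went from 12.2 to 6.93 and 4.81. By type, the Col5a1 ratio of the Gli1+ libraries was lower at 7 dpi in stem-like cells (20.8 to 7.36) and higher in tenocyte-like cells (1.08 to 2.58). Within 1 sex the changes of Col5a1, Col5a2 and Col5a3 were 0.043, -0.16 and -1.33 at 7 dpi in Y cells of the Gli1+ libraries, -0.50, -0.48 and -1.70 in those of the Gli1- libraries, and -0.56, -0.36 and -1.34 at 21 dpi in Xist cells of the Gli1+ libraries.

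Levels differed by type. Among types with at least 50 cells in a library, Col1a1 was highest in bone-like cells at 21 dpi, at 43091 CPM in 64 Gli1+ and 32953 CPM in 61 Gli1- cells, and the 6 collagens together took 7.77% and 5.99% of the UMIs of these cells. Tenocyte-like cells followed in the Gli1+ library at 22155 CPM and progenitor-like cells in the Gli1- library at 18344 CPM. Bone-like cells of uninjured Gli1+ tendon, 24 in number, fell short of 50 cells. They held 39028 Col1a1 UMIs, against 51593 in the 64 Gli1+ bone-like cells at 21 dpi. At 7 dpi the stem-like, progenitor-like and tenocyte-like cells lay within a narrow range, 14755 to 16337 CPM in the Gli1+ and 15614 to 17940 CPM in the Gli1- library. Uninjured stem-like cells were at 1611 and 2428 CPM and uninjured tenocyte-like cells at 7617 and 3615 CPM. Col3a1 was highest in stem-like cells among the types of 5 of the 6 libraries, at 16037 CPM in Gli1+ and 19499 CPM in Gli1- cells at 7 dpi, and in uninjured Gli1- tendon progenitor-like cells were higher, at 4116 against 2962 CPM. Col1a1, Col3a1 and Col5a2 were higher after injury in every type compared, 7 per sort and time point, and so were Col1a2 and Col5a1. These 7 include endothelial cells in both sorts and epidermal or Schwann cells. Epidermal cells of the Gli1+ libraries held Col1a1 at 29.6, 1806 and 454 CPM, and Schwann cells of the Gli1- libraries at 206, 4049 and 4460 CPM, and the part of free RNA in these values was not tested. The interval of the log2 ratio of Col5a3 spanned 0 in endothelial cells of the Gli1+ library at 21 dpi and in Schwann cells of the Gli1- library at 7 dpi.

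**Figure D5:**
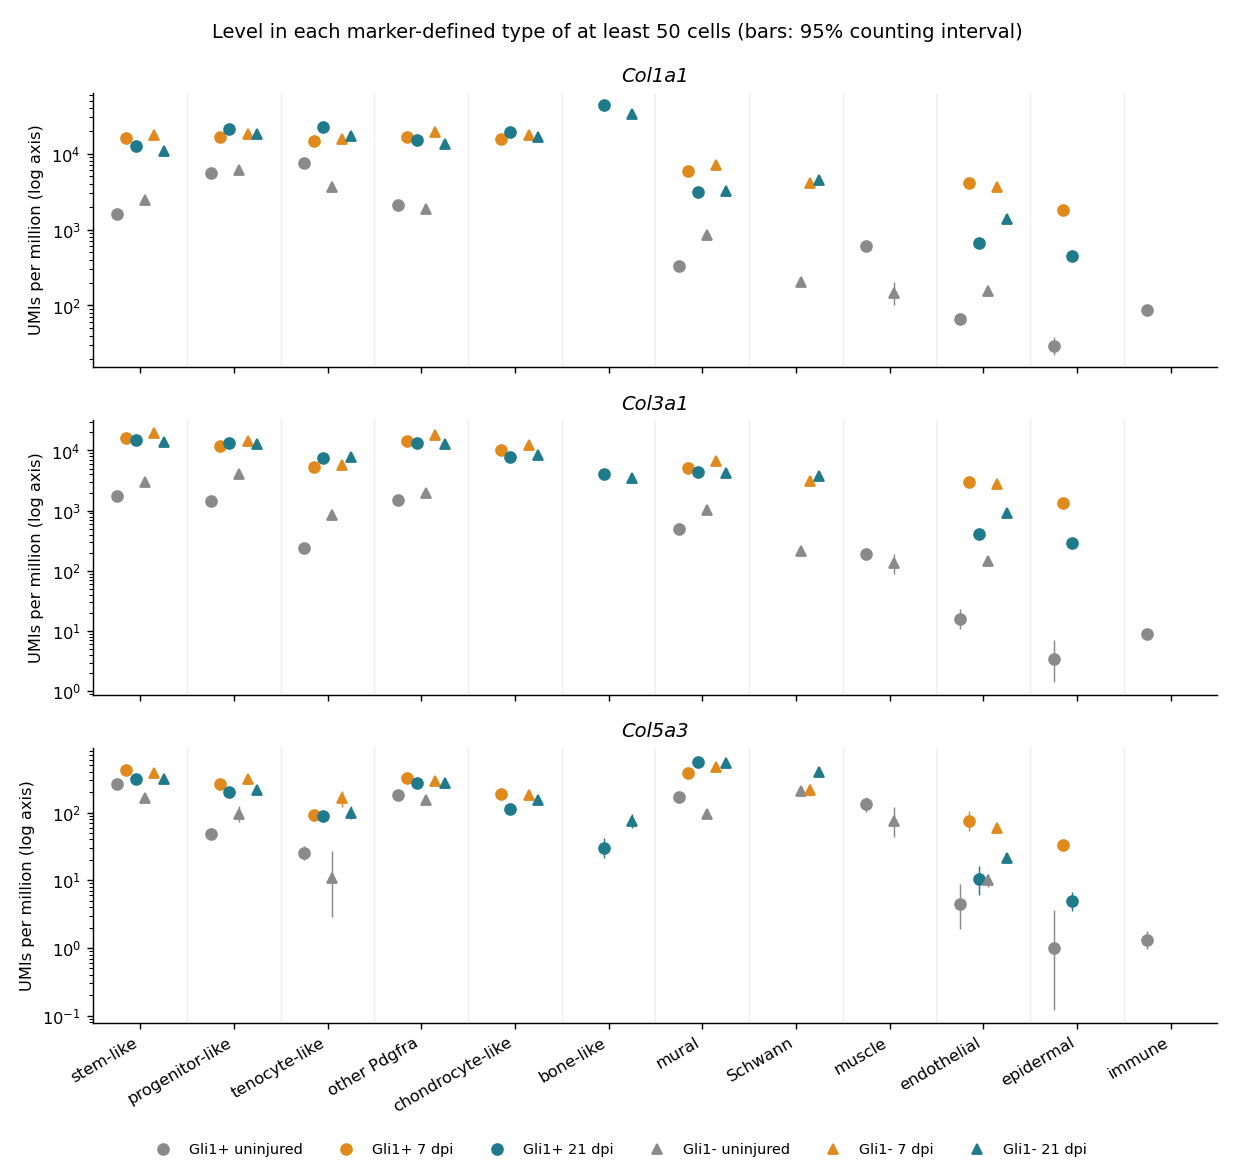
Levels of Col1a1, Col3a1 and Col5a3 (CPM, log axis, 95% counting intervals) in each marker-defined type with at least 50 cells, colored by time and shaped by sort (Gli1+ circles, Gli1- triangles). Among the types shown, Col1a1 peaks in bone-like cells at 21 dpi (43091 and 32953), Col3a1 in stem-like cells at 7 dpi (16037 and 19499) and Col5a3 in mural cells at 21 dpi (559 and 532). The 24 bone-like cells of uninjured Gli1+ tendon, which held 39028 Col1a1 UMIs, are too few to be shown.

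Col5a3 had a pattern of its own across types. Mural cells held it at 168, 378 and 559 CPM in the Gli1+ sort, against 96.3, 463 and 532 CPM in the Gli1- sort, the highest of the types at 21 dpi in both. Mural cells held 10.4% of all Col5a3 UMIs of the Gli1+ and 14.2% of those of the Gli1- library at 21 dpi, against 0.870% and 1.77% of the Col1a1 UMIs. Schwann cells, the glia of nerve, had 206, 215 and 401 CPM in the Gli1- libraries, and in uninjured tendon they held 172 Col5a3 UMIs and as many of Col1a1. Bone-like cells at 21 dpi, the highest for Col1a1, were at 30.1 and 75.5 CPM for Col5a3. In stem-like cells Col5a3 was at 263, 422 and 314 CPM for Gli1+, and 162, 386 and 315 CPM for Gli1-, and in tenocyte-like cells at 25.1, 93.3 and 88.0 CPM and 10.7, 161 and 100 CPM. Over the 51 combinations of library and type with at least 50 cells, the correlation of log2 levels of Col5a3 with the other members was between 0.62 and 0.85 (Pearson's r), and that among the other 5 between 0.89 and 0.99. These points share libraries, depth and cells of like kind, so the values are a description.

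In uninjured Pdgfra cells Col1a1, Col1a2 and Col5a2 were higher in the Gli1+ than in the Gli1- library, by log2 ratios of 0.73 (0.72 to 0.74), 0.83 (0.82 to 0.85) and 0.65 (0.62 to 0.69), and Col3a1 was lower, at -0.83 (-0.85 to -0.81). With TMM scaling these ratios were 0.51, 0.62, 0.44 and -1.05. Of all genes, 20.2% differed at least as much as Col3a1 there and 23.4% as much as Col1a1. The uninjured libraries also differ in sex, since the Gli1+ library held 1131 Xist cells and the Gli1- library 0. Sorts of the same pooled mice would share sexes, so whether both libraries came from the same mice is not known. Sort and mice can therefore not be told apart in these ratios. Among Y cells, 411 in the Gli1+ and 3683 in the Gli1- library, the ratios were 0.76 for Col1a1, 1.001 for Col1a2, 0.58 for Col5a2 and -0.57 for Col3a1. Without bone-like and chondrocyte-like cells the ratio of Col1a1 was -0.09, so that its sign depends on these cells, and that of Col1a2 was 0.22. Of the uninjured bone-like cells with a Pdgfra UMI, 22 were in the Gli1+ and 3 in the Gli1- library. Within stem-like cells the Gli1+ library was lower in Col1a1 (-0.59) and Col3a1 (-0.78) and higher in Col5a2 (0.63) and Col5a3 (0.70).

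After injury the sorts were closer to each other in Col3a1. At 7 dpi its ratio of Gli1+ to Gli1- cells was -0.35 and that of Col1a1 was -0.20, and the other 4 lay between -0.15 and -0.04, of which Col5a2 and Col5a3, at -0.04 each, changed to 0.004 and 0.03 in cells with at least 2 Pdgfra UMIs. Of all genes, 23.1% differed as far as Col3a1, 38.8% as far as Col1a1 and 49.6% to 84.2% as far as the other 4, so the members were not set apart from the rest. Among Y cells the ratios at 7 dpi were -0.32 for Col3a1 and -0.19 for Col1a1. At 21 dpi Col1a1 (0.23), Col1a2 (0.28) and Col3a1 (0.09) were higher in Gli1+ cells, and the ratios of the Col5 genes lay between -0.06 and 0.03, while 20.7% to 97.3% of all genes differed as far as a member. Among Xist cells the ratios at 21 dpi were 0.24 for Col1a1, 0.30 for Col1a2 and 0.0996 for Col3a1.

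Part of each level may come from free RNA in the droplets. Endothelial, epidermal and immune cells, taken here to make little fibrillar collagen, were used to gauge it. Whether they transcribe these genes themselves was not tested. The level of Col1a1 in endothelial cells was 1.43%, 26.3% and 4.08% of that in Pdgfra cells for Gli1+, against 5.66%, 20.1% and 10.1% for Gli1-. Over the 6 members these percentages ran from 1.01% (Col3a1) to 3.66% (Col5a1) in uninjured Gli1+ tendon, from 22.2% to 26.3% at 7 dpi and from 2.96% to 4.84% at 21 dpi, and in the Gli1- libraries from 4.31% to 7.43%, from 16.1% to 20.2% and from 7.25% to 10.1%. With cells thinned to 2000 UMIs, a Col1a1 UMI was found in 7.79%, 100% and 57.0% of Gli1+ and 22.3%, 98.2% and 69.4% of Gli1- endothelial cells, in 8.79%, 95.5% and 50.6% of Gli1+ epidermal cells and in 6.11% of the immune cells of uninjured Gli1+ tendon. Among Pdgfra cells these shares were 74.2%, 99.8% and 98.7% for Gli1+, against 56.8%, 99.9% and 98.2% for Gli1-. At 7 dpi thinned Gli1+ cells held a mean of 6.66 (endothelial), 3.91 (epidermal) and 31.1 (Pdgfra cells) Col1a1 UMIs. The level read as background thus depended on the type used, with 90 endothelial and 1682 epidermal cells in that library. Endothelial medians were 4717, 3682 and 6212 UMIs and Pdgfra medians 9077, 10613 and 9659 UMIs in the Gli1+ libraries, against 2678, 2516.5 and 4580 and 5931, 11927 and 9442.5 UMIs in the Gli1- libraries. Without thinning the shares were 18.5%, 100% and 91.1% of endothelial and 93.2%, 100% and 99.6% of Pdgfra cells in the Gli1+ libraries. At 7 dpi the thinned share of Pdgfra cells was not above that of endothelial cells in the Gli1+ library and was above it, at 99.9% against 98.2%, in the Gli1- library, while the level was higher in both, at 15767 against 4141 CPM in the Gli1+ and 18139 against 3654 CPM in the Gli1- library. In tenocyte-like cells Col3a1 was found in 23.4%, 99.5% and 95.1% of Gli1+ and 45.8%, 100% and 93.8% of Gli1- cells, and the share of free RNA in that change was not tested.

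For each member the genes with the most similar levels were ranked over the 51 combinations. With the 6 members left out of the ranking of 7013 genes, Timp1, an inhibitor of metalloproteinases, Bgn (biglycan) and Fn1 (fibronectin) had the highest Pearson's r with Col1a1, 0.96 each, and Rcn3, Lox and Bgn with Col1a2, at 0.96 to 0.97. Mmp23, Bgn and C1qtnf6 were most like Col3a1 at 0.94 to 0.96, Col6a2, Mmp23 and Col6a1 most like Col5a1 at 0.94, and Bgn, Col6a1 and Kdelr3 most like Col5a2 at 0.95 to 0.96. Bgn thus stood among the nearest 3 genes of 4 members. Col5a3 was most like Galnt16, the noncoding RNA Meg3 and Tnfaip6, at 0.88 to 0.90, none of which was among the nearest 3 of another member. The mean r over all 7013 genes was between -0.02 and 0.07 for each member.

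Some of the genes that modify collagen chains inside the cell were higher together with the members. Of 17 such genes, 8 at 7 dpi and 5 at 21 dpi were at least 2-fold higher than uninjured in Gli1+ Pdgfra cells, 11 and 7 in Gli1- cells, and 1 was at least 2-fold lower each time. Of all genes 13.2% and 7.86% were higher by this fold for Gli1+, against 13.8% and 12.2% for Gli1-, while 19.5% and 18.9% were lower for Gli1+, against 15.6% and 15.7% for Gli1-. Serpinh1, the collagen chaperone HSP47, was at 339, 1473 and 1105 CPM (Gli1+) and 435, 1552 and 1115 CPM (Gli1-). P3h1, a prolyl 3-hydroxylase, was at 22.9, 93.2 and 54.1 CPM in Gli1+ cells, and its partner Ppib, a prolyl isomerase, at 459, 1397 and 983 CPM. P3h4 had log2 ratios of 1.28 and 1.37. The gene that went the other way was Colgalt2, a galactosyltransferase of collagen, at 26.5, 9.33 and 5.14 CPM in the Gli1+ sort, against 69.4, 12.4 and 9.06 CPM in the Gli1- sort. The median of the list was 0.98 and 0.75 on the log2 scale in Gli1+ and 1.40 and 0.88 in Gli1- cells.

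Genes that trim and crosslink fibrils outside the cell were mixed, with 1 of 13 at least 2-fold higher at each time and 3 and 2 lower in Gli1+ cells, and 4 and 3 higher and 2 and 3 lower in Gli1- cells. Of all genes 13.2% and 7.86% were higher and 19.5% and 18.9% lower by this fold in Gli1+ cells, and 13.8% and 12.2% higher and 15.6% and 15.7% lower in Gli1- cells. Lox, the lysyl oxidase that starts crosslinks, was at 187, 537 and 419 CPM for Gli1+, and 101, 564 and 421 CPM for Gli1-. Pcolce2, an enhancer of procollagen trimming, was lower after injury, at 509, 39.2 and 99.1 CPM and at 338, 62.0 and 89.8 CPM. Tll2, a procollagen protease, was at 5.66, 0.198 and 0.366 CPM (Gli1+) and 8.78, 0.415 and 0.439 CPM (Gli1-), its levels after injury being below those of every other gene named from these lists. The median of the list was 0.46 and 0.61 for Gli1+, against 0.84 and 0.71 for Gli1-.

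Of the 5 other fibrillar collagen genes, 3 and 4 were at least 2-fold higher with Gli1+, as were 4 and 5 with Gli1-, and 2 and 1 were at least 2-fold lower in Gli1+ cells and none in Gli1- cells, beside the same 7.86% to 13.8% of all genes higher and 15.6% to 19.5% lower. Col2a1, the type II collagen of cartilage, was at 38.5, 18.8 and 264 CPM in the Gli1+ sort, against 0.744, 89.6 and 600.1 CPM in the Gli1- sort, and Col11a2 at 52.0, 4.999 and 19.9 CPM and 5.505, 8.07 and 34.1 CPM. Both had their highest Gli1- level at 21 dpi, and Col11a2 was highest in uninjured tendon in Gli1+ cells. Col24a1 was at 6.32, 86.8 and 37.7 CPM and Col27a1 at 39.8, 144 and 82.4 CPM in Gli1+ cells, with the peak at 7 dpi in Gli1- cells too, at 80.6 and 137 CPM. Among receptors and degrading enzymes, 9 of 10 genes had enough UMIs, and 2 and 3 of them were at least 2-fold higher in Gli1+ and 3 and 3 in Gli1- cells. At least 2-fold lower were 1 and 1 for Gli1+, and 2 and 1 for Gli1-, beside the same shares of all genes. The list medians on the log2 scale were -0.43 and -0.29 for Gli1+, against -0.11 and 0.04 for Gli1-. Mmp13, a collagenase, was at 16.8, 54.3 and 1412 CPM for Gli1+, and 2.83, 38.1 and 1779 CPM for Gli1-, and Ctsk, cathepsin K, at 148, 295 and 841 CPM and 123, 287 and 686 CPM. Both were thus highest at 21 dpi, when no member was more than 1.03-fold its level of 7 dpi. Itga2, a collagen-binding integrin chain, was lower after injury, at 18.5, 6.53 and 5.54 CPM (Gli1+) and 8.15, 5.81 and 5.09 CPM (Gli1-).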

How the data were processed

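Gene counts per cell barcode were deposited by the authors for 6 libraries of the 10x Genomics 3 prime assay, as raw UMI counts that were not normalized. The submitters' processing notes name Cell Ranger 3.1.0 and build mm10, whereas the headers of the matrices name Cell Ranger 9.0.0, so the version that made them could not be settled.

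Cells were kept with a minimum of 200 genes and 1000 UMIs, where log10 of the genes divided by log10 of the UMIs reached 0.7 and neither mitochondrial nor hemoglobin transcripts exceeded 5%. Doublets were scored by Scrublet in scanpy 1.11.5 in place of the caller the study used, and the highest scores were removed at 0.8% per 1000 cells. Kept UMIs were 53589094 to 107739968 per library. A class needed 3 detected markers. For epidermal cells a minimum of 100 epidermal UMIs per 10000 was added after the data were seen, because keratin transcripts were spread over other cells of the Gli1+ library at 7 dpi.

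Counts were summed and given as CPM, with exact Poisson intervals for levels, exact binomial intervals for ratios of 2 counts, and Woolf intervals for changes of a ratio, all at 95%. Each sort and time point was 1 library, so no test between conditions was made. TMM factors came from edgeR 4.0.16. Genes named beside the 6 members were, for each member, the 3 with the highest Pearson's r of log2(CPM + 1) over library and type combinations, among genes with a mean of at least 20 CPM, and from each list of collagen-related genes the 3 with the largest absolute log2 ratio over uninjured tendon at each time in Gli1+ Pdgfra cells, with at least 50 UMIs. The members and lists were chosen with earlier results of these data known. Scripts were tested on simulated data. Alternatives were no cell filter, doublets kept, TMM scaling, members left out of the total, 2 Pdgfra UMIs, equal weight per cell, thinning to 2000 UMIs before the Pdgfra gate, cells of 1 sex and other thresholds, and, chosen after seeing the data, thinning after the gate and leaving out bone-like, chondrocyte-like and tenocyte-like cells.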

Additional observations from a re-analysis of the deposited data

Results flagged for a closer look

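Summed over Pdgfra cells, the type I chains were level from 7 to 21 dpi in Gli1+ and lower in Gli1- libraries. The log2 ratios differed in sign. In Pdgfra cells the log2 ratio of 21 over 7 dpi was 0.029 for Col1a1 and 0.041 for Col1a2 in the Gli1+ pair, whereas the Gli1- pair had -0.40 for Col1a1 and -0.34 for Col1a2. The difference between the sorts was not tested, since each value rests on 1 library per time point. With TMM scaling the Gli1+ values were 0.17 and 0.18 and the Gli1- values -0.34 and -0.28. The Gli1+ values turned to -0.08 and -0.10 in cells with at least 2 Pdgfra UMIs, to -0.08 and -0.01 with cells weighted equally, to -0.04 and -0.01 without bone-like and chondrocyte-like cells and to -0.08 and -0.004 with the same cells thinned to 2000 UMIs. With thinning before the Pdgfra gate, which left 1976 and 2335 Gli1+ cells, they were -0.28 and -0.19. The libraries of 7 and 21 dpi also differ in sex in both sorts, and the part of this in the result was not tested. By type the direction was mixed, with Col1a1 higher at 21 dpi in 3 and lower in 5 of 8 types in each sort. Gli1+ stem-like cells went from 15906 to 12501 CPM, and progenitor-like cells from 16337 to 20869 CPM. Gli1- stem-like cells went from 17594 to 10969 CPM, and progenitor-like cells from 17940 to 18344 CPM.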

How the results depend on the processing

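With 1 library per condition no replicate could be left out. No paired analysis was possible because the labels give 1 library per sort and time point and no result comes from a test. No value changed sign for the change of the Col3a1 to Col1a1 ratio over uninjured tendon, but its size depended on the cells. At 7 dpi in Gli1+ cells, 1.33 became 1.19 without a cell filter, 1.22 with doublets kept, 1.36 at 2 Pdgfra UMIs, 1.28 without cells of other marker lists, 0.68 with equal weight, 0.28 thinned before the Pdgfra gate (fewer cells pass it), 0.70 thinned after it, 1.02 in Y cells, 0.39 without bone-like and chondrocyte-like cells and 0.28 also without tenocyte-like cells. At 21 dpi, 1.26 became under the same settings 1.10, 1.17, 1.33, 1.204, 0.61, 0.21, 0.62, 1.36 (Xist cells), 0.41 and 0.32. In Gli1- cells at 7 dpi, -0.09 became -0.12, -0.12, -0.11, -0.15, -0.052, -0.018, -0.062, -0.18 (Y cells), -0.16 and -0.17, and at 21 dpi -0.17 became -0.25 without a filter, -0.20 with doublets, -0.15 at 2 Pdgfra UMIs, -0.24 without other lists, -0.19 thinned before or after the gate, and -0.15 without bone-like and chondrocyte-like cells, with or without tenocyte-like cells. The causes were not tested. The counts of members at least 2-fold higher stayed between 4 and 6 under all alternatives run. Of the 90 alternative values of this change and these counts, 38 moved away from the main value by more than its counting interval. The same held for 616 of 800 other alternative values, so the intervals do not cover such choices. Of these 800, 42 changed sign, among them the ratio of Col5a1 to Col1a1 at 7 dpi in Gli1+ cells. Its log2 change of 0.07 became -0.02 without a cell filter and -0.01 with doublets kept. Of the values sought within cells of 1 sex, 122 could not be had, in many cases for one of the sexes alone.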
